A study of Mus musculus with 8 samples.

Results

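Nuclei of the early distal convoluted tubule (DCT1) were described in single-nucleus RNA-seq libraries of mouse kidney. Nuclei were selected by the counts of 5 genes: a nucleus was taken when it held at least 3 unique molecular identifiers (UMIs, each standing for 1 captured transcript) of Slc12a3 and at most 1 UMI of Slc8a1, Trpv5, Calb1 and Scnn1g summed. The values of these genes are descriptions and were not tested. The rule selected 702 of 81391 nuclei (0.863%) that passed quality limits (500 genes or more, 800 UMIs or more, and no more than 2% of UMIs on mitochondrial genes). The 8 libraries came from male mice on a C57BL/6J background, 14 weeks old and kept under 12 h of light and 12 h of dark. All mice carried Bmal1 alleles flanked by lox sites and drank doxycycline (2 mg/ml, with 20 mg/ml sucrose) for 2 weeks from 8 weeks of age. The cKOt mice also carried the transgenes Pax8-rtTA and LC-1, through which doxycycline switches on Cre recombinase in the renal tubule. The Ctrl mice were littermates with the lox alleles only. Kidneys were taken at Zeitgeber time 4 (ZT4, in the light phase) or 16 (ZT16, in the dark phase), from 2 mice in each of the 4 groups. With 2 mice per group, all tests have few degrees of freedom, and their p-values measure the spread between libraries.

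The distal convoluted tubule lies between the thick ascending limb (TAL) and the connecting tubule (CNT). It reabsorbs sodium chloride through the thiazide-sensitive cotransporter NCC, the product of Slc12a3, which kinases of the WNK and SPAK families switch on and which the ubiquitin ligase adaptor KLHL3 restrains by removing the WNK kinases. It also reabsorbs magnesium through the apical channel TRPM6. The early stretch is known for NCC without the calcium and sodium entry routes of the late stretch, which adds the calcium channel TRPV5, the binding protein calbindin, the exchanger NCX1 (Slc8a1) and the epithelial sodium channel (Scnn1a, Scnn1b, Scnn1g).

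An identity as DCT held for most but not all of the selected nuclei, while the early part of the label DCT1 rests on the rule. The markers Trpm6 and Klhl3 do not tell early from late DCT. They were also found in 94.4% and 97.0% of nuclei with 3 or more UMIs of Slc12a3 and 3 or more of the 4 other rule genes summed. Of the 702 nuclei, 516 (73.5%) held at least 5 UMIs of Slc12a3, and 509 of these held at least 10. The other 186 (26.5%) held 3 or 4 UMIs, next to the threshold. In the sum over the 516 nuclei, Trpm6 stood at 1162 UPM (UMIs of a gene for every 1000000 UMIs of the same nuclei) and Klhl3 at 1823, whereas the 186 nuclei near the threshold had 17.4 and 61.3. The 1317 nuclei just outside the rule, with 2 UMIs of Slc12a3, had 10.9 UPM of Trpm6 and 59.2 of Klhl3. Across the 8 libraries Trpm6 lay between 879 and 1673 UPM in nuclei with at least 5 UMIs of Slc12a3, and between 0 and 67.4 in those with 3 or 4. The nuclei next to the threshold thus had the levels of the nuclei just outside it for both markers that the rule did not use.

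Trpm6 was found in 87.4% of the nuclei with at least 5 UMIs of Slc12a3, in 6.99% of those with 3 or 4, and in 7.25% of 524 podocyte-like nuclei, a class of the glomerulus that gives the level of free RNA. Klhl3 was found in 96.7%, 20.4% and 18.5% of the same nuclei, respectively. The median depth was 3832.5 UMIs per nucleus with at least 5 UMIs of Slc12a3, 4637.5 with 3 or 4, and 3986.5 in podocyte-like nuclei, so the nuclei near the threshold were not shallower. They carried transcripts of other segments: 3055 UPM of Slc34a1, the phosphate transporter of the proximal tubule (PT), against 525, and 2464 of Slc12a1, the cotransporter of the TAL, against 507. Nuclei with 3 or more UMIs on 13 markers of other classes made up 97.8% of the 186 and 66.9% of the 516. For this reason counts of called genes are given for all 702 nuclei and again for the 516 with at least 5 UMIs of Slc12a3, except for Pvalb. Values of single genes are those of the 516 unless all 702 are named, and the label DCT1 is used for the 516. The higher threshold was planned for the comparisons of libraries and was added after seeing the data for the comparisons with other classes.

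Ctrl ZT4 mice gave 132 and 96 of the selected nuclei, Ctrl ZT16 mice 102 and 74, cKOt ZT4 mice 75 and 84, and cKOt ZT16 mice 57 and 82. The share near the threshold ran from 6.82% of the selected nuclei in Ctrl ZT4 replicate 1 (exact binomial 95% interval 3.16 to 12.5) to 52.6% in cKOt ZT16 replicate 1 (39.0 to 66.0), and up to 32.9% in the other libraries. Such intervals cover counting error only. The median Slc12a3 count per selected nucleus was 4 in cKOt ZT16 replicate 1 and between 45 and 67.5 elsewhere. After the nuclei near the threshold were left out, it was between 51 and 85.5 in all 8 libraries. Selected nuclei had a median of 4001 UMIs and 1918 genes, and their sums held between 295918 and 566468 UMIs per library, out of library totals of 36548873 to 54500820. Doublet scores marked 62 of the 702 (8.83%), which were kept. No barcode was selected in more than 1 library, and each of the 28 pairs of libraries shared 18 to 42 barcodes among nuclei that passed the quality limits.

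**Figure D1:**
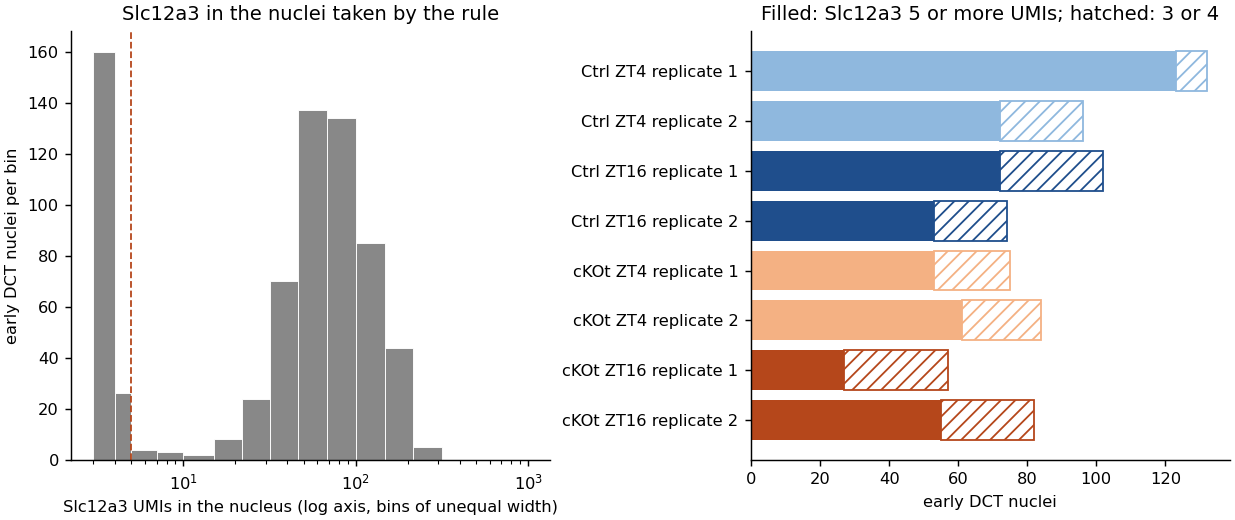
Slc12a3 UMIs per selected nucleus (log axis) and the number of selected nuclei in each of the 8 libraries, with nuclei at 5 UMIs or more filled and those at 3 or 4 hatched. The 186 nuclei near the threshold form a separate low group, and in cKOt ZT16 replicate 1 they are 52.6% of the selected nuclei.

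The selected nuclei were a smaller share of the nuclei in cKOt libraries, but not beyond what the design could test. The share lay between 0.689% (Ctrl ZT16 replicate 2, exact binomial 95% interval 0.541 to 0.864) and 1.33% (Ctrl ZT4 replicate 1, 1.12 to 1.58) in Ctrl, and between 0.651% and 0.838% in cKOt, so the genotypes overlapped. The mean was 0.740% in cKOt and 0.986% in Ctrl, a difference of -0.246 percentage points (two-sided exact permutation test within time points, p = 0.111). ZT16 differed from ZT4 by -0.203 percentage points (0.761% against 0.964%; exact permutation p = 0.167). With at least 5 UMIs of Slc12a3 the differences were -0.301 (exact permutation p = 0.111) and -0.276 (exact permutation p = 0.0556, the smallest that the 36 arrangements of 8 libraries allow). Both differences moved with the library and the depth. With every nucleus thinned to 1000 UMIs before the rule, they were -0.499 (1.34% in cKOt against 1.84% in Ctrl) and -0.377 (1.40% at ZT16 against 1.78% at ZT4; exact permutation p = 0.111 for each). Without Ctrl ZT4 replicate 1 they were -0.153 and -0.110, and they ran to -0.339 and -0.296 with another library left out. Since the rule counts Slc12a3, fewer early DCT nuclei and less Slc12a3 per nucleus cannot be told apart in the shares of all selected nuclei. Of the 516 nuclei with at least 5 UMIs of Slc12a3, 509 held at least 10, and what moved their share was not tested. Nuclei with at least 3 UMIs of Slc12a3 and at least 3 of the other 4 rule genes summed made up 3.25% to 4.10% in Ctrl libraries. In cKOt libraries they made up 3.22% to 4.48%.

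Slc12a3 itself was much the same in every library once the nuclei near the threshold were left out. It stood at 18498 and 17286 CPM (counts for every 1000000 of a library's sum, adjusted by TMM normalization factors) in Ctrl ZT4, 19783 and 19403 in Ctrl ZT16, 17931 and 17787 in cKOt ZT4, and 17594 and 16750.1 in cKOt ZT16. It ranged over all 702 nuclei from 6628 CPM in cKOt ZT16 replicate 1 to 17279.9 in Ctrl ZT4 replicate 1. These are values of a gene that chose the nuclei, and no test was drawn from them.

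Early DCT was next compared with the late DCT, that is, 3091 nuclei with at least 3 UMIs of Slc12a3 and at least 3 of the 4 late genes summed. The median sum of the late genes was 49 UMIs in these nuclei and 1 in podocyte-like nuclei, of which 53.1% held Slc8a1. The limit of 1 UMI thus lies at the level of free RNA. As a raw count it also depends on depth, with medians of 3832.5 UMIs in early nuclei at 5 UMIs or more of Slc12a3 and 5317 in late DCT. UMIs were summed per class and library and tested with edgeR's quasi-likelihood test with the library as a block, so that each library is its own control. Genes with an adjusted p (Benjamini-Hochberg over all genes tested) under 0.05 are called. For all 702 nuclei 1055 of 13503 genes were called higher (7.81%) and 860 lower (6.37%) in early DCT. With at least 5 UMIs of Slc12a3 there were 210 higher (1.56%) and 426 lower (3.17%) of 13434. The 2 sets shared 391 genes, 20.4% of the first and 61.5% of the second, and 19 of them had the opposite sign. Among the PT markers 9 of 9 were called higher over all 702 nuclei (median log2 difference 1.06) and 0 of 9 at 5 UMIs or more (median -0.10), and 6 of 6 endothelial (Vasc) markers behaved in the same way (median 1.28, then 0 called). The leading genes of the 702 nuclei included the endothelial receptors Adgrl4 (log2 difference 1.78) and Ptprb, neither of which was called at 5 UMIs or more.

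Early DCT nuclei with at least 5 UMIs of Slc12a3 had lower levels of most calcium transport genes and of 1 sodium channel subunit than the late DCT, among genes that the rule did not use. Of 7 late DCT and CNT markers 5 were lower and 0 higher (median -1.52; 6 and 0 over all 702 nuclei), and the other two, Scnn1a, the alpha subunit of the epithelial sodium channel, and the calcium pump gene Atp2b1, were not called. Scnn1a had medians of 184 UPM in early and 141 in late DCT (0.11 ± 0.10, edgeR adjusted p = 0.718; -0.38 and called lower over all 702 nuclei), and Atp2b1 medians of 215.4 and 193 (0.09 ± 0.09, edgeR adjusted p = 0.767). Of 9 calcium transport genes tested, 6 were lower and 1 higher, as over all 702, with a median log2 difference of -1.21 against -0.05 over all genes. Scnn1b, the beta subunit of the epithelial sodium channel, ranged over the 8 libraries from 8.86 to 22.9 UPM (median 14.2) in early and from 90.7 to 133 (median 99.4) in late DCT. Its log2 difference was -2.90 ± 0.19 (SE; edgeR adjusted p = 4.03e-24). Kl, which encodes the hormone co-receptor klotho, ranged from 187 to 336 (median 271) and from 641 to 1227 (median 859), a difference of -1.82 ± 0.08 (edgeR adjusted p = 1.14e-36). Vdr, the vitamin D receptor, ranged from 157 to 319 and from 389 to 573 (-1.23 ± 0.08). Over all 702 nuclei Scnn1b was at -2.94, Kl at -1.98 and Vdr at -1.27, all called. For none of these 3 genes did the ranges of the classes overlap. Also lower were S100g (calbindin-D9k, -1.54), Klk1 (tissue kallikrein, -1.52), Atp2b4 (a plasma membrane calcium pump, -1.21), Pth1r (the parathyroid hormone receptor, -0.99) and Hsd11b2 (-1.74), the enzyme that keeps cortisol and corticosterone from the mineralocorticoid receptor. A gene with few counts in early DCT could be tested through late DCT alone, and the fold of such a gene is a description. The calcium-sensing receptor Casr was the calcium gene that was higher (1.03 ± 0.11), with 99.9 to 243 UPM in early and 50.8 to 111 in late DCT.

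The lower genes with the largest folds were Egfem1 (-5.19), Stk32a (-3.80), Slc2a9 (-3.79), which encodes a urate transporter, Adamts3 (-3.18), Arl15 (-3.10), A4galt (-3.06), Scnn1b, the calcium release channel gene Ryr2 (-2.55), Nxn (-2.30) and Plppr1 (-1.92). Arl15, a small GTPase gene known for its part in magnesium handling, ranged from 121 to 353 UPM in early and from 1109 to 1986 in late DCT. Slc2a9 had a median of 9.72 UPM in early against 111 in late DCT, and Egfem1 4.77 against 88.1. On early sums of 134868 to 450330 UMIs these are few counts. Both could reach the counts needed for testing through late DCT alone, so their folds are given as a description. The long noncoding RNAs (lncRNAs) named by size were AI838599 (-3.77), Gm4876 (-1.65) and 9330159M07Rik (-1.07). AI838599 lay between 0 and 38.3 UPM in early and between 178 and 250 in late DCT.

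Genes higher in early than in late DCT had smaller folds. Tox (1.72 ± 0.14, edgeR adjusted p = 8.77e-18), a nuclear factor gene, ranged from 102 to 156 UPM in early and from 22.2 to 62.8 in late DCT. Grin3a, a subunit of NMDA-type glutamate receptors, was higher by 1.46 ± 0.12 (edgeR adjusted p = 2.64e-17), although its ranges of 48.7 to 415 and 13.4 to 141 overlapped. The differences over all 702 nuclei were 1.44 for Tox and 0.83 for Grin3a, both called. Nrxn3 (1.71), Lrrc31 (1.59), Pigr (1.57), Atp4a (1.29), Rtl4 (1.27), Dcdc2a (1.24), Ptger3 (1.19) and Kcnn2 (1.18) followed. Atp4a encodes the catalytic subunit of the gastric-type proton pump, Ptger3 a prostaglandin E receptor and Kcnn2 a calcium-activated potassium channel. The lncRNAs Gm45847 (1.08), Gm42697 (1.01) and Gm15848 (1.01) were also higher.

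Some of these genes are known from the TAL, the segment just before. Of 9 TAL markers 3 were higher and 0 lower (5 and 0 over all 702 nuclei), namely at 5 UMIs or more Umod, the gene of uromodulin (0.66 ± 0.08), Ptger3 and Slc5a3, a myo-inositol transporter gene (0.34). Umod ranged from 146 to 658 UPM in early (median 433) and from 77.5 to 453 in late DCT (median 231). Beside this, the summed TAL markers of these early nuclei lay between 884 and 1942 UPM, and the part of TAL transcripts from other nuclei in the differences was not tested.

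The magnesium genes split, with 2 of 12 higher and 2 lower (2 and 4 over all 702 nuclei). Egf, whose product stimulates TRPM6 and which the DCT makes in large amounts, was higher in early DCT (0.78 ± 0.06, edgeR adjusted p = 1.42e-20), with medians of 4139 and 2196 UPM. The channel kinase Trpm7, the close relative of Trpm6, was higher (0.60 ± 0.05, edgeR adjusted p = 1.49e-15), with 2504 to 3509 UPM in early and 1436 to 2166 in late DCT, which did not overlap. Trpm6 was lower (-0.65 ± 0.06, edgeR adjusted p = 1.12e-14), from 879 to 1673 in early (median 1150) and from 1480 to 2009 in late DCT (median 1692). Cnnm2, a basolateral membrane protein needed for magnesium balance, was lower too (-0.93 ± 0.07). Pvalb, for parvalbumin, a calcium-binding protein known from early DCT, differed by -0.02 and was not called. When all 702 nuclei were used, Egf was at 0.28, Trpm7 at 0.08 (not called) and Trpm6 at -1.28.

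Genes around NCC differed little. Among 11 genes of the kinases and the ubiquitin ligase 1 was higher and 3 were lower. Stk39 (SPAK) was higher by 0.28 ± 0.06 (edgeR adjusted p = 0.000649), with medians of 1084 and 830 UPM. Wnk1 was lower by 0.32 on the log2 scale (edgeR adjusted p = 1.35e-06), with medians of 4376 and 5011. Klhl3 differed by -0.14 (edgeR adjusted p = 0.207), with medians of 1806 and 1826. Wnk4 differed by 0.08 (edgeR adjusted p = 0.751). The other called genes were Cab39l (-0.43), a cofactor of SPAK, and Nedd4l (-0.24), a ubiquitin ligase gene. With all 702 nuclei, 5 of these 11 genes were lower, with Wnk1 at -0.89 and Stk39 at -0.20. Among 11 basolateral and apical channel and pump genes 1 was called, Kcnj16 (-0.26), which encodes a subunit of the basolateral potassium channel, whereas over all 702 nuclei 1 was higher and 6 were lower.

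Of 18 transcription factors of the nephron, Prox1 (0.53) and Lhx1 (0.38 ± 0.09, edgeR adjusted p = 0.00128) were higher and Gata3 (-0.66), Tfcp2l1 (-0.64), Pax2 (-0.39) and Dach1 (-0.36) were lower in early DCT (2 higher and 9 lower over all 702 nuclei). Gata3 ranged from 72.3 to 148 UPM in early and from 115 to 178 in late DCT. Sall3 (-0.01) and Emx1 (-0.25, edgeR adjusted p = 0.0843), both marker genes of the DCT, were not called. Abca13, a large transporter of the ABC family, was higher by 0.48 ± 0.05 (edgeR adjusted p = 2.33e-12) with medians of 7830 and 5222. With all 702 nuclei, Abca13 (-0.13) and Lhx1 (-0.21) had the opposite sign.

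The threshold on the late genes did not lie at a step in the levels of the genes below. Over nuclei with at least 5 UMIs of Slc12a3, 259 had 0 UMIs of the late genes, 257 had 1, 221 had 2, 1071 had 3 to 19 and 1914 had 20 or more. Depth rose along these bands, with medians of 3803, 4020, 4053, 4576 and 5905 UMIs per nucleus. Trpm7 was at 2882, 2962, 3024, 2723 and 1416 UPM in these 5 bands. Egf was at 4722, 4478, 4235, 3805 and 1962. Thus the nuclei just inside (1 UMI) and just outside (2 UMIs) the rule had like levels, and most of the step in both genes lay beyond 19 UMIs. Taken library by library, the median of Egf was 4108, 4058, 4294, 3454 and 1636, so no order was seen among the first 3 bands. Kl was at 274, 266, 293, 429 and 1138, and Trpm6 at 1065, 1253, 1241, 1599 and 1816. Klhl3, at 1849, 1799, 1713, 1995 and 1837, and Slc12a3, at 17696, 17815, 17889, 17718 and 15458, varied little. These sums pool nuclei of all libraries and are given without a test. With late DCT limited to the 1914 nuclei with 20 UMIs or more (added after seeing the data), 372 genes were called higher (2.98%) and 532 lower (4.26%) of 12475. The log2 differences of early from late DCT were then 0.90 for Trpm7, 1.12 for Egf, 0.64 for Abca13, -0.76 for Trpm6 and -2.17 for Kl.

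**Figure D2:**
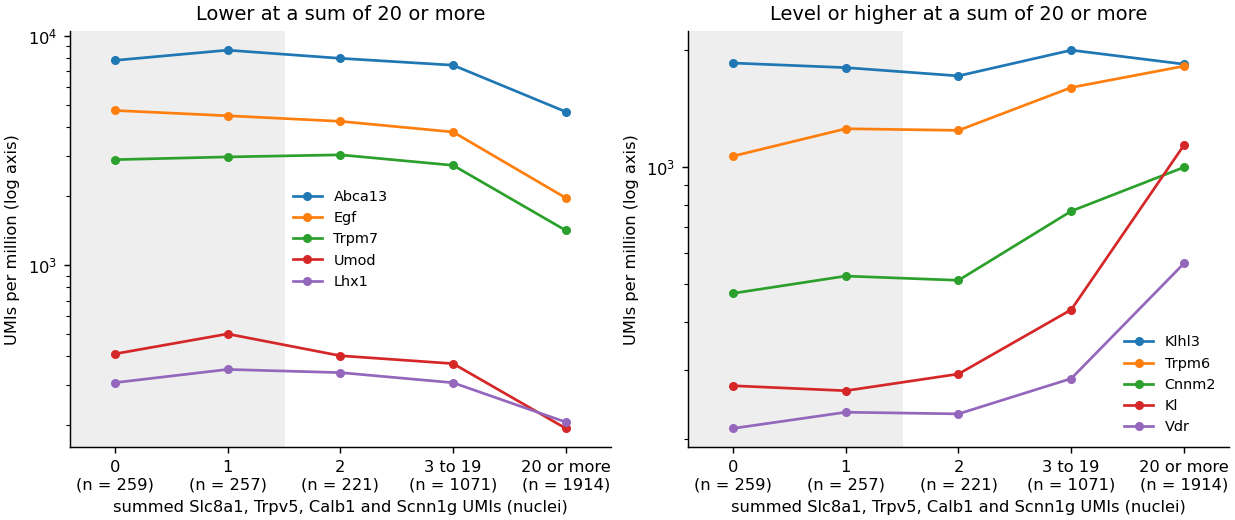
UPM (log axis) of 10 genes in nuclei with at least 5 UMIs of Slc12a3, by the summed UMIs of Slc8a1, Trpv5, Calb1 and Scnn1g, pooled over the 8 libraries, with the bands inside the rule shaded grey. Trpm7 stays between 2723 and 3024 from 0 to 19 UMIs and is at 1416 at 20 or more, Egf goes from 4722 to 3805 and then to 1962, Kl goes the other way, from 274 to 1138, and Klhl3 stays between 1713 and 1995.

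Against the TAL, taken as 13482 nuclei with at least 3 UMIs of Slc12a1 and none of Slc12a3, early DCT had higher levels of most DCT markers, while the NCC regulators and transcription factors moved in both directions. For all 702 nuclei 580 of 16983 genes were called higher (3.42%) and 1225 lower (7.21%). With at least 5 UMIs of Slc12a3 there were 1069 higher (6.3%) and 2696 lower (15.9%) of 16980. The first set shared 1634 genes with the second, which is 90.5% of the first and 43.4% of the second, all with the same sign. Of 13 DCT markers 11 were higher over all 702 nuclei and 12 at 5 UMIs or more. Their median log2 difference was 2.21 and 2.82, where the median of all genes was -0.11 and -0.16. Trpm6 was higher by 6.13 ± 0.10 at 5 UMIs or more (5.49 over all 702), from a median of 16.3 UPM in the TAL. Klhl3 was higher by 4.03 ± 0.09 (3.42), from a median of 112. Trpm7 (3.08), Wnk1 (3.01), Wnk4 (1.38) and Stk39 (0.77) were higher as well. Of the 11 NCC regulators 4 were higher and 3 lower at 5 UMIs or more (4 and 4 over all 702), the lower ones being Sgk1 (-1.62), an aldosterone-induced kinase gene, Nedd4l (-0.53) and Cab39l (-0.31), with a list median of 0.09. Of 12 magnesium genes 5 were higher and 2 lower (4 and 1 over all 702). Of 11 channel and pump genes 6 were higher and 2 lower at 5 UMIs or more (3 and 2 over all 702). Of 18 transcription factors 10 were higher and 6 lower at 5 UMIs or more (6 and 5 over all 702). Sall3 (5.07), Lhx1 (4.96) and Emx1 (4.36) were higher, Irx2 (-4.27), Irx1 (-2.78), Irx3 (-1.66), Pax2 (-1.50) and Pax8 (-1.28) were among the lower, and the lncRNA Lhx1os was higher (4.21), whose reads cannot be told from those of Lhx1 if strand was not used. Grin3a (6.45) and Fgf13 (6.36), an intracellular factor that binds sodium channels, were near the floor in the TAL, at no more than 3.11 and 8.23 UPM.

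TAL genes were lower in early DCT. The 8 TAL markers other than Slc12a1 were all lower at both thresholds, with Umod at -1.63 and Ptger3 at -2.42 for 5 UMIs or more. Pcsk6 (-5.18), a proprotein convertase gene, and Tmem207 (-4.53) had larger folds, and the lncRNA Gm14002 was at -4.66. Here too a gene with few counts in early DCT could be tested through the TAL alone, and its fold is then a description. The PT and Vasc markers were not called over all 702 nuclei (0 of 9 and 0 of 6), and all 9 and all 6 were lower at 5 UMIs or more. The nuclei taken as TAL themselves carried such transcripts, with medians of 3560 UPM for the summed PT and 558 for the summed Vasc markers. Podocyte-like nuclei had 1403 and 263, and early DCT at 5 UMIs or more had 1390 and 163. The part of these transcripts in the calls against the TAL was not tested.

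Against the CNT, taken as 2987 nuclei without Slc12a3, with at least 1 UMI of Calb1 and at least 3 of the late genes, the split followed the same lines. Over all 702 nuclei 788 of 13842 genes were higher (5.69%) and 1144 lower (8.26%), and at 5 UMIs or more 1190 were higher (8.62%) and 2283 lower (16.5%) of 13811. They shared 1713 genes, 88.7% of the first and 49.3% of the second, 3 with opposite sign. Of 13 DCT markers 11 and 12 were higher, respectively, and 1 was lower in each, Kl (-1.29 at 5 UMIs or more). Abca13 (4.72), Esrrb (3.26), a nuclear receptor gene, Egf (3.16), Trpm6 (3.03), Prox1 (3.01) and Klhl3 (2.74) were higher than in the CNT. The NCC regulators held 5 higher and 3 lower of 11 at both thresholds. The magnesium genes held 6 and 3 of 11 tested at 5 UMIs or more (6 and 0 over all 702), and the transcription factors 9 and 6 of 18 (6 and 5). The channel and pump genes held 7 higher and 1 lower of 11 at 5 UMIs or more (6 and 0 over all 702). Syt9 (6.38), a synaptotagmin gene, Fgf13 (6.28) and Grin3a (6.12) had the folds that led the list. Lower genes included Kcne1 (-8.94), a potassium channel subunit, Egfem1 (-7.74), Hsd11b2 (-5.68) and Scnn1b (-4.85). Those with few counts in early DCT, such as Egfem1, could be tested through the CNT alone, so their folds are a description. The PT, Vasc and podocyte (Podo) markers were not called over all 702 nuclei (0 of 9, 0 of 6 and 0 of 5), and all 9, all 6 and all 5 were lower at 5 UMIs or more, where 4 of 9 TAL markers were lower and 2 higher (0 and 2 over all 702). Esrrb ranged from 468 to 688 UPM in early DCT and from 42.5 to 94.5 in the CNT. Malat1, an abundant nuclear lncRNA, had a median of 171123 UPM in early and 170233 in late DCT, and 122658 and 140457 in the TAL and CNT.

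**Figure D3:**
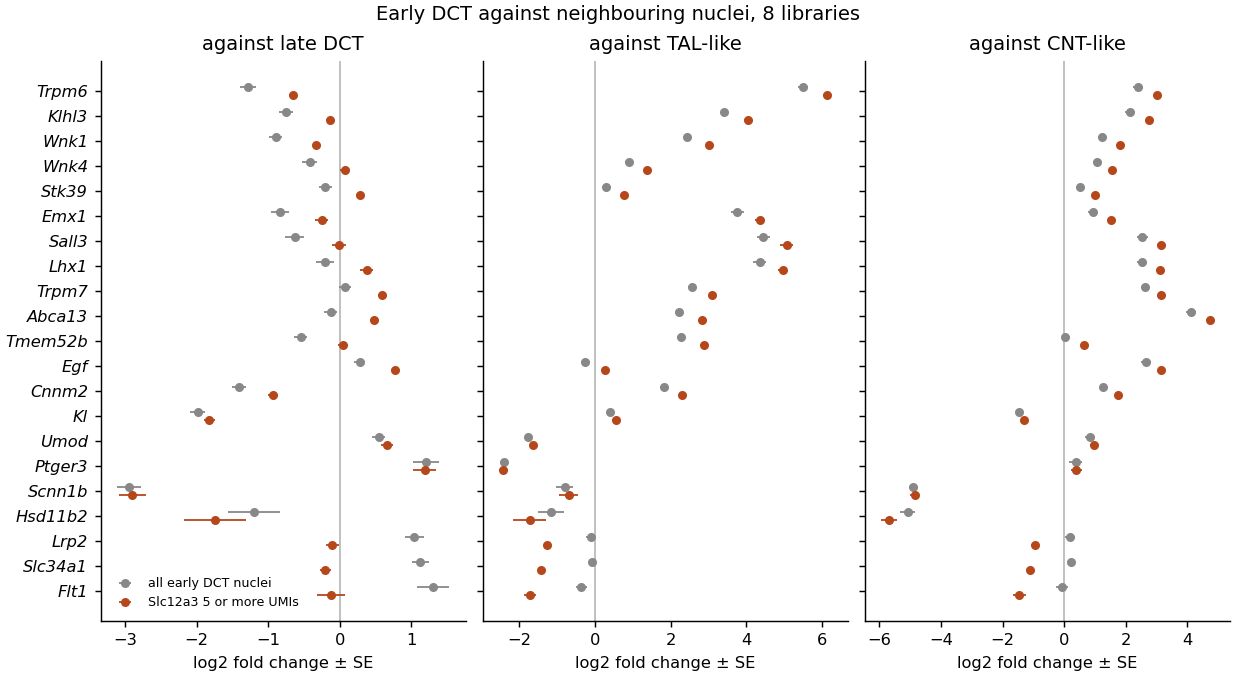
Log2 difference ± SE of early DCT from late DCT, TAL-like and CNT-like nuclei for 21 genes, over all 702 nuclei (grey) and over the 516 with at least 5 UMIs of Slc12a3 (orange), from edgeR fits over 8 libraries. For Trpm6 and Klhl3 the orange points against late DCT (-0.65 and -0.14) lie nearer to 0 than those against the TAL (6.13 and 4.03) and CNT (3.03 and 2.74), for Kl the point against late DCT (-1.82) lies farther from 0 than those against the TAL (0.55) and CNT (-1.29), and for Abca13 and Lhx1 the orange and grey points against late DCT lie on opposite sides of 0.

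Nuclei with Pvalb could not be set apart as a kind of their own. Pvalb was found in 54 of the 702 nuclei, and 8 nuclei in 4 libraries held 2 UMIs or more, too few to fit. It was present in 9.88% of nuclei with at least 5 UMIs of Slc12a3, in 12.4% of late DCT nuclei and in 0.382% of podocyte-like nuclei, with median depths of 3832.5, 5317 and 3986.5 UMIs. Comparing the 54 nuclei, near-threshold ones included, with those lacking a Pvalb UMI gave 211 called genes of 9039 (2.33%), with 208 lower and 3 higher. The sums of nuclei with Pvalb held 7185 to 97185 UMIs per library, beside 263874 to 489263 in those without. In cKOt ZT4 replicate 1 the sum was that of 1 nucleus. Genes could thus be tested through the larger sums alone, and these counts and their direction are given as a description. The call of Pvalb is fixed by the split, and the other two higher genes, named after their values were seen, were D7Ertd443e (1.32) and the lncRNA Gm15848 (1.16). The lower genes were led by genes of vessels and other segments, such as Meis2 (-4.25), Emcn (-4.79), Slc12a1 (-2.11) and Slc34a1 (-1.68). Of the nuclei near the threshold, which carry such genes, 1.61% held Pvalb, and their part in this comparison was not tested.

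The comparisons of genotype and time in early DCT nuclei were led by clock genes. In the clock, BMAL1 (the product of Arntl, named Bmal1 in the mouse model) pairs with CLOCK or NPAS2 and drives the Per and Cry repressors and the Nr1d genes through E-boxes. The NR1D (REV-ERB) repressors then act on Arntl, Npas2 and others through ROR elements. The 8 libraries were fitted in 1 edgeR model of 4 groups, over genes that reached 5 counts in each replicate of one of the groups compared.

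Arntl, the targeted gene, was at 32.2 and 27.4 CPM in Ctrl ZT4 and at 134 and 125 in Ctrl ZT16, for nuclei with at least 5 UMIs of Slc12a3. It was at 377 and 196 CPM in cKOt ZT4 and at 296 and 317 in cKOt ZT16. All 4 cKOt libraries thus lay above all 4 Ctrl libraries. The counts are per gene and do not tell transcripts with the floxed part from those without it, so they do not check the deletion. At ZT4 cKOt exceeded Ctrl by 3.23 ± 0.35 on the log2 scale (edgeR adjusted p = 2.33e-06; 3.14 ± 0.37 and 0.00376 over all 702 nuclei). At ZT16 the difference was 1.26 ± 0.31 (edgeR adjusted p = 0.221). From ZT4 to ZT16 Arntl was higher in Ctrl by 2.11 ± 0.37 (edgeR adjusted p = 0.0241; 2.02 and 0.285 over all 702 nuclei).

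Npas2, the partner of BMAL1 that can replace CLOCK, was high in cKOt at both times. It was at 11.5 and 13.7 CPM in Ctrl ZT4, 32.1 and 23.1 in Ctrl ZT16, 364 and 250 in cKOt ZT4, and 311 and 313 in cKOt ZT16. The genotypes did not overlap and differed by 4.57 ± 0.38 at ZT4 (edgeR adjusted p = 2.31e-08) and by 3.44 ± 0.36 at ZT16 (edgeR adjusted p = 2.94e-06). Over all 702 nuclei the difference at ZT16 was 2.54 ± 0.37 (edgeR adjusted p = 0.0407), and that call was lost without any 1 of the 4 ZT16 libraries (log2 differences from 2.13 to 3.43, adjusted p from 0.0513 to 0.266). Clock itself lay between 158 and 259 CPM in all 8 libraries and was not called in any comparison.

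Among the repressors, Cry1 was at 4.60 and 5.48 CPM in Ctrl ZT4, from 2 UMIs in each library, at 37.5 and 50.8 in Ctrl ZT16, and between 57.2 and 88.8 in cKOt. All 6 other libraries thus lay above those of Ctrl ZT4. Being so low there, Cry1 passed the filter on low counts only through the groups where it was high, and its levels are given as a description, with no test. Per2 was at 25.3 and 24.7 CPM in Ctrl ZT4, 121 and 106 in Ctrl ZT16, and between 88.0 and 164 in cKOt. It was higher at ZT16 in Ctrl (2.18 ± 0.42, edgeR adjusted p = 0.0372) and in cKOt at ZT4 (2.29 ± 0.42, edgeR adjusted p = 0.0117). Nr1d2 (REV-ERBβ) went the other way, at 78.2 and 151 CPM in Ctrl ZT4, 29.5 and 13.9 in Ctrl ZT16, and between 8.81 and 23.7 in cKOt. Both Ctrl ZT4 libraries were thus above the other 6. It had 11 and 3 UMIs in Ctrl ZT16 and 4 and 7 in cKOt ZT4, passed the filter only through Ctrl ZT4, and is likewise given with no test. Per2 was not called over all 702 nuclei. In these the calls of Arntl and Rhobtb1 for the genotype at ZT4 were lost without Ctrl ZT4 replicate 1 (log2 differences 3.12 and 2.76, edgeR adjusted p = 0.0875 and 0.151), and that of Arntl without Ctrl ZT4 replicate 2 (3.16, 0.0863).

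Clock genes were read in the podocyte-like nuclei too, as a level of free RNA or of the clock of another class, which cannot be told apart here. Per2 was at 14.5 and 13.3 UPM in podocyte-like nuclei of Ctrl ZT4 and at 120 and 94.6 in Ctrl ZT16, beside 24.4 and 24.0, then 119 and 104, in early DCT. The time difference of Per2 in Ctrl was thus seen there too. In cKOt ZT4 Per2 was at 52.0 and 9.88 UPM in podocyte-like and at 160 and 85.1 in early DCT nuclei. Arntl was at 14.5 and 21.4 UPM in podocyte-like nuclei of Ctrl ZT4, 31.9 and 52.5 in Ctrl ZT16 and 32.9 to 101 in cKOt, so it too was higher at ZT16 in Ctrl. Cry1 was at 4.85 and 0 UPM in Ctrl ZT4, 19.9 and 24.5 in Ctrl ZT16, 12.99 and 9.88 in cKOt ZT4 and 38.4 and 35.2 in cKOt ZT16. Npas2 was at 9.69 to 38.5 in Ctrl and at 48.7 to 162 in cKOt, below early DCT in all 4 cKOt libraries. Nr1d2 was at 150.2 and 146.8 UPM in Ctrl ZT4, 87.7 and 31.5 in Ctrl ZT16, 120 and 115 in cKOt ZT4 and 21.9 and 18.96 in cKOt ZT16, lower at ZT16 in both genotypes. At ZT4 in cKOt early DCT had 17.7 and 22.9 UPM of Nr1d2.

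The same genes were read in the late DCT (nuclei with 20 summed UMIs or more) and the TAL. Npas2 in cKOt was at 237 to 272 UPM in late DCT and at 314 to 365 in the TAL, beside 242 to 354 in early DCT, and in Ctrl ZT4 at 20.2 and 19.6, 10.6 and 19.3, and 11.1 and 13.3. Arntl in cKOt was at 258 to 337 in late DCT, 189 to 281 in the TAL and 190 to 368 in early DCT. In Ctrl it was at 80.0 and 38.5, then 74.9 and 108, in late DCT, where the times overlapped, and at 13.3 and 17.5, then 149 and 153, in the TAL. Both genes were thus higher in cKOt in all 3 classes. Per2 in Ctrl went from 24.2 and 19.6 at ZT4 to 171 and 115 at ZT16 in late DCT, and from 35.8 and 34.7 to 79.8 and 68.7 in the TAL. Cry1 in Ctrl was at 1.62 and 1.83, then 37.1 and 40.1 UPM, in late DCT and at 6.66 and 4.93, then 33.1 and 34.5, in the TAL. Nr1d2 in Ctrl was at 78.3 and 117, then 35.0 and 27.4, in late DCT and at 160 and 166, then 33.4 and 37.1, in the TAL. For Per2, Cry1 and Nr1d2 the direction of the time difference in Ctrl was thus the one seen in early DCT. These values are descriptions, and the part of free RNA in the calls was not tested.

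**Figure D4:**
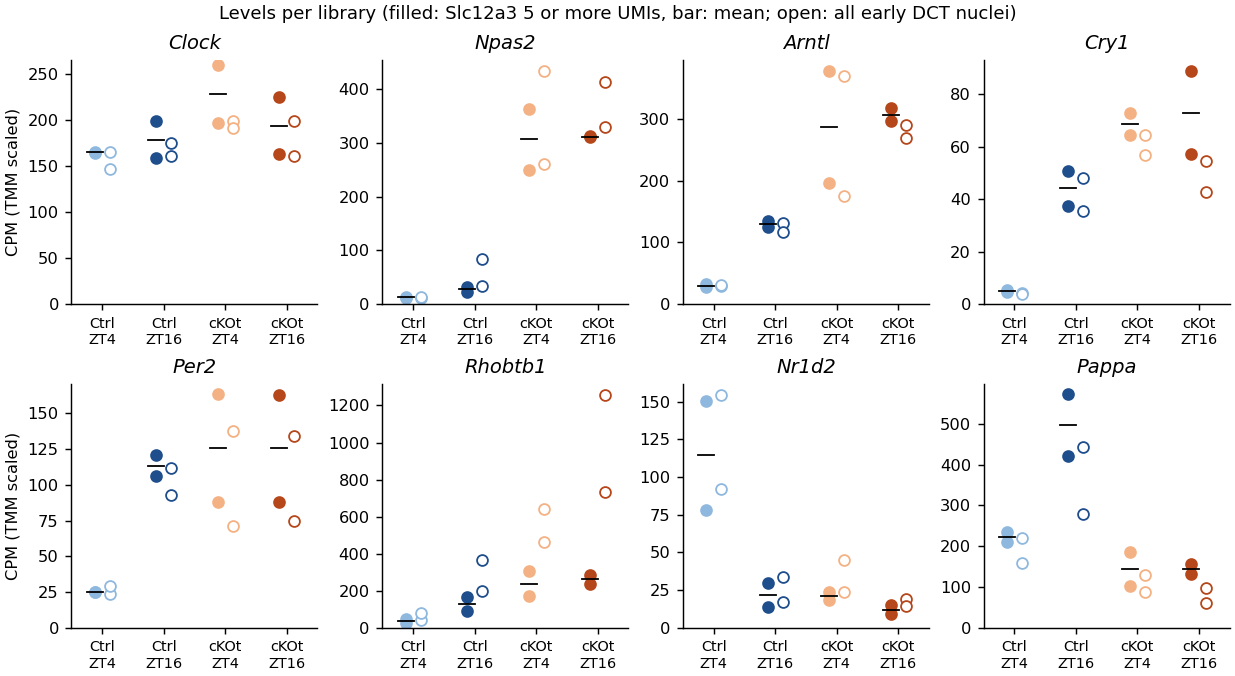
CPM in each of the 8 libraries for 8 genes, for nuclei with at least 5 UMIs of Slc12a3 (filled, with a bar at the mean of 2 mice) and for all selected nuclei (open). Arntl, Cry1 and Per2 are low in both Ctrl ZT4 libraries and high in the other groups, while Npas2 is high only in the 4 cKOt libraries and the filled points of Clock lie between 158 and 259 CPM.

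Of the 20 clock genes 14 could be tested for the time effect in Ctrl at 5 UMIs or more, and 4 were higher and 1 lower, where 0.175% of all genes tested were called. The genotype at ZT4 gave 5 higher and 1 lower of 14 (0.139% of all genes), that at ZT16 gave 1 higher of 12 (0.0611%), and the time effect in cKOt gave 0 of 11 (0.0%). These counts include genes that passed the filter only through the group where they were high, such as Cry1 and Nr1d2, and are given as a description. The medians were 0.96, 1.20, 0.03 and -0.02 on the log2 scale, where those of all genes lay between -0.04 and -0.002. The comparisons share libraries and are not independent of each other. The counts over all 702 nuclei were 1 of 15, 4 of 16, 1 of 14 and 0 of 14, beside 0.0111%, 0.0557%, 0.0352% and 0.0% of all genes. Rora lay between 568 and 997 CPM in the 8 libraries, Tef between 70.5 and 142, and Cry2 between 9.20 and 51.8, and none of these was called. Per1, Nr1d1, Dbp, Nfil3 and Ciart reached at most 29.9 CPM in any library.

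Promoters were looked up for Arntl, Cry1 and Per2, which were low in both Ctrl ZT4 libraries and higher in the other groups, and for Npas2 and Nr1d2, which had other patterns. The windows are RefSeq sequences of GRCm38.p6, 300 bases long, from 250 bases before to 50 after a start of transcription. They were searched on both strands for the E-box CACGTG, the D-boxes TTATGTAA and TTATGCAA, and the ROR element cores TAGGTCA and TGGGTCA, letters that do not overlap with each other in the windows shown. Of all 32851 promoters, 7.15% hold the E-box, 1.66% a D-box and 6.45% a ROR core. Of the 4 genes with an entry, the Arntl and Cry1 windows are printed because they hold a match, in capitals. A match is a description of letters and not of binding.
Arntl, chr7:113207261-113207560, plus strand, with a ROR core 30 bases after the start: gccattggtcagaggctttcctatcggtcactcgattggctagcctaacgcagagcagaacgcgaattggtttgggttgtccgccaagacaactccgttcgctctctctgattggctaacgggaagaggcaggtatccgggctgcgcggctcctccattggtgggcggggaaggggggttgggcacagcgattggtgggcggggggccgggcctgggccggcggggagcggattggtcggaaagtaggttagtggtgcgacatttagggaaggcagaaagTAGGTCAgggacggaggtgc
Cry1, chr10:85185005-85185304, minus strand, with an E-box 60 bases before the start: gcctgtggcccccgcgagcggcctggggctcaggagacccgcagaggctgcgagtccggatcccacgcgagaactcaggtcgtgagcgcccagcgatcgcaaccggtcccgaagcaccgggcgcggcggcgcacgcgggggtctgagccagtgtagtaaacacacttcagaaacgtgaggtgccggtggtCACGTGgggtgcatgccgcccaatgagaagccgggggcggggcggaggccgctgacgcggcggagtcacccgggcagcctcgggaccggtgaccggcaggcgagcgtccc
A further Arntl window, chr7:113207215-113207514, and the windows of Npas2 and Nr1d2 held none of these letters. Per2 had no entry.

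In Ctrl, the comparison of ZT16 with ZT4 called 1 of 9043 genes over all 702 nuclei (0.0111%) and 14 of 7995 at 5 UMIs or more (0.175%), 9 higher and 5 lower at ZT16. Beside the clock genes, Cipc (1.62), a partner of CLOCK, Rhobtb1 (1.87), an atypical GTPase gene, Phactr1 (1.40), a regulator of actin and phosphatase 1, Lpl (1.44), lipoprotein lipase, and Srgap1 (1.81) were higher, and Bach2 (-1.70), Dab2 (-1.18), Bcas3 (-1.17) and Slc13a1 (-2.10) were lower, each with an edgeR adjusted p of 0.0372. Cipc was at 55.2 and 49.3 CPM in Ctrl ZT4 and at 129 and 203 in Ctrl ZT16. Dab2 (an endocytosis adaptor) and Slc13a1 (a sulfate transporter) are genes of the PT. Dab2 was at 391 and 452 CPM in Ctrl ZT4 and at 174 and 199 in Ctrl ZT16. The summed PT markers of the same nuclei were at 1506 and 1797 UPM in Ctrl ZT4 and at 1275 and 816 in Ctrl ZT16, so they moved the same way. The summed Vasc markers moved the other way, at 73.3 and 66.7 UPM in Ctrl ZT4 and at 238 and 153 in Ctrl ZT16, with a median log2 difference of 2.06 over 5 tested, of which 3 had an unadjusted p under 0.05 and 0 were called. The part of either marker list in the calls of both directions was not tested.

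In cKOt, the same comparison called 0 of 8410 genes over all 702 nuclei (0.0%) and 0 of 6359 at 5 UMIs or more (0.0%) by edgeR. There were 599 and 386 genes with an unadjusted p under 0.05, and DESeq2 called 0 at 5 UMIs or more. The difference between the time effects of cKOt and Ctrl called 1 of 9479 genes (0.0105%) and 1 of 8170 (0.0122%).

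At ZT4 cKOt differed from Ctrl for 5 of 8970 genes over all 702 nuclei (0.0557%) and for 11 of 7908 at 5 UMIs or more (0.139%), 8 higher and 3 lower, and the 5 were among the 11. Rhobtb1 was at 27.6 and 46.6 CPM in Ctrl ZT4 and at 173 and 305 in cKOt ZT4, a difference of 2.73 ± 0.37 (edgeR adjusted p = 0.000126; 3.13 and 0.00750 over all 702 nuclei). With all 702 nuclei, Rhobtb1 was at 641 and 461 CPM in cKOt ZT4 and at 1256 and 733 in cKOt ZT16, above the 173 to 305 CPM of the nuclei with at least 5 UMIs of Slc12a3 in cKOt. Podocyte-like nuclei had much the same levels of Rhobtb1, 38.8 and 32.0 UPM in Ctrl ZT4 and 283 and 194 in cKOt ZT4, beside 26.6 and 45.3, then 168 and 295, in early DCT. In the TAL it was at 53.3 and 105 and at 521 and 643 UPM. The higher level in cKOt was thus seen in these classes too, and the part of free RNA in it was not tested. Npnt (1.88, edgeR adjusted p = 0.0172), which encodes nephronectin of the basement membrane, was higher, at 48.3 and 35.6 CPM in Ctrl ZT4 and 155 and 156 in cKOt ZT4. Beside the genes higher in cKOt, the Vasc markers were at 173 and 272 UPM in cKOt ZT4 against 73.3 and 66.7 in Ctrl ZT4 (median log2 difference 1.47 over 4 tested, 0 called), and their part was not tested. Rapgef5, given with no test, was at 9.20 and 0 CPM in Ctrl ZT4 (4 and 0 UMIs) and at 45.5 and 71.1 in cKOt ZT4 (10 and 21 UMIs), and passed the filter on low counts only through cKOt.

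Umod and Grin3a, both higher in early than in late DCT, were lower in cKOt at ZT4. Umod was at 573 and 509 CPM in Ctrl ZT4 and at 150.1 and 257 in cKOt ZT4, a difference of -1.37 ± 0.25 (edgeR adjusted p = 0.00940). The summed TAL markers, of which Umod is 1, were at 1457 and 1544 UPM in Ctrl ZT4 and at 1440 and 884 in cKOt ZT4, and no other TAL marker was called. At ZT16 Umod was at 654 and 674 CPM in Ctrl and at 370.1 and 348 in cKOt, which was not called (-0.87, edgeR adjusted p = 0.439). Grin3a was at 133 and 255 CPM in Ctrl ZT4 and at 50.0 and 54.2 in cKOt ZT4 (-1.86 ± 0.39, edgeR adjusted p = 0.0429).

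At ZT16 cKOt differed from Ctrl for 3 of 8513 genes over all 702 nuclei (0.0352%) and for 4 of 6548 at 5 UMIs or more (0.0611%), 1 higher and 3 lower, with Npas2 in both. Pappa, a protease gene that frees insulin-like growth factors, was at 421 and 573 CPM in Ctrl ZT16 and at 155 and 132 in cKOt ZT16 (-1.77 ± 0.29, edgeR adjusted p = 0.00673). Phactr1 was at 1672 and 2314 CPM in Ctrl ZT16 and at 244 and 859 in cKOt ZT16 (-1.77 ± 0.31, edgeR adjusted p = 0.00835). Rtl4 was at 683 and 1302 CPM in Ctrl ZT16 and at 289 and 405 in cKOt ZT16 (-1.45 ± 0.28, edgeR adjusted p = 0.0370). The genotypes did not overlap at ZT16 in these 3, which follows from naming only called genes without overlap. None was called over all 702 nuclei (-2.16, -1.99 and -1.33, edgeR adjusted p = 0.0593, 0.231 and 0.447). Also among the 3 genes over all 702 nuclei were Fhad1, with 1 and 0 UMIs in Ctrl ZT16 and 19 and 18 in cKOt ZT16, and the lncRNA Gm43190, with 2 and 3 UMIs against 52 and 34. Both passed the filter only through cKOt ZT16 and are given with no test. At 5 UMIs or more Fhad1 had too few counts to be tested, and Gm43190 was not called. At ZT16 the PT markers of all 702 nuclei had a median log2 difference of 1.05 (0 of 9 called) and those at 5 UMIs or more 0.30 (0 of 8), beside the larger share of nuclei near the threshold in cKOt ZT16 replicate 1.

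The genes that define the work of the early DCT were not called between genotypes or times, where few genes of any kind were called. No gene of the NCC kinase, magnesium, channel, corticosteroid, calcium and transcription factor lists, and no DCT marker, was called in any of the 5 comparisons of libraries at either threshold. Of all genes tested, between 0.0% and 0.175% were called, so 0 calls in lists of this size is near that share. Some members had too few counts. At 5 UMIs or more, 9 of 12 magnesium and 5 of 9 corticosteroid genes were tested for time in Ctrl. At 5 UMIs or more Trpm6 was at 911 and 1334 CPM in Ctrl ZT4, 989 and 1713 in Ctrl ZT16, 1296 and 1506 in cKOt ZT4, and 1036 and 925 in cKOt ZT16. Its log2 differences were 0.26 ± 0.23 from ZT4 to ZT16 in Ctrl, -0.51 ± 0.24 in cKOt, 0.34 ± 0.23 for the genotype at ZT4 and -0.43 ± 0.24 at ZT16 (edgeR adjusted p from 0.781 to 0.992). Klhl3 lay between 1475 and 2118 CPM, with differences of 0.01, -0.19, -0.08 and -0.28 and SEs of 0.19. Wnk1 differed by 0.05, -0.18, 0.01 and -0.23, with SEs of 0.18. Changes larger than these errors could also go uncalled, as Trpm6 in cKOt did at -0.51 ± 0.24. Genes that were called had far larger differences beside their errors, such as Bcas3 for time in Ctrl (-1.17 ± 0.24). The lack of a call thus sets no narrow limit on a change. With all 702 nuclei, Trpm6 (-0.98) and Klhl3 (-0.78) had larger differences at ZT16, with the median of 13 DCT markers at -0.55 against -0.13 at 5 UMIs or more.

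Markers of other classes were present at 5 UMIs or more. The summed PT markers (9 of 9 detected) lay between 816 and 1863 UPM (median 1390) and the TAL markers (9 of 9) between 884 and 1942 (median 1500), beside DCT markers (Slc12a3 not included) between 14955 and 24456. In podocyte-like nuclei, used for the level of free RNA, the medians were 1403 for PT and 1053 for TAL markers. Nos1 and Ptgs2 of the macula densa, and C1qa and Cd79a of immune cells were at 0 in all 8 libraries. The summed Vasc markers (6 of 6 detected) lay between 66.7 and 272 UPM, those of intercalated cells (6 of 6) between 7.41 and 359 and the immune markers (4 of 6) between 6.55 and 38.3. Their medians here and in podocyte-like nuclei were 163 and 263 for Vasc, 20.4 and 15.0 for intercalated cell and 20.6 and 35.7 for immune markers. Of 13 stress genes 4 to 7 and of 10 tubular injury genes 2 to 3 had enough counts to be tested in the 5 comparisons of libraries, and 0 were called. None of the 8 adipocyte genes could be tested.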

How the data were processed

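The authors isolated nuclei, made droplet libraries and counted reads with Cell Ranger 7.1.0 (bcl2fastq 2.20 and Seurat 5 are also named in the submitters' notes), and deposited raw UMI counts for every gene in each barcode that was called a nucleus. The labels name GRCm39 and the methods mm10, so no coordinates were taken from the files. The use of intronic reads and of strand in counting was not found in those sources. The members and gene lists were chosen with earlier results of these data known.

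Counts of 32285 features were summed over selected nuclei per library and tested with edgeR 4.0.16 (TMM, quasi-likelihood, mRNAs and lncRNAs in 1 fit, mitochondrial genes left out). The SE of an edgeR log2 difference was derived from the test, as its absolute value divided by the square root of the quasi-likelihood F. Classes were compared over genes with at least 5 counts in at least 4 of the sums. A gene could pass this filter through the sums of a single class, and folds of genes with few counts in the other class are descriptions. Sums of 295918 to 566468 UMIs per library (702 nuclei) and of 134868 to 450330 (516 nuclei) leave genes under about 10 CPM with few counts. Biotypes came from the annotation by identifier (31674 features) or symbol (41), and 570 features had none. Scrublet, run through scanpy 1.11.5 with an expected rate of 8%, gave the doublet scores. Named genes were those of the lists and, per direction, the 8 called mRNAs and 3 lncRNAs with the smallest p and no overlap between groups, or against other classes the 10 and 3 with the largest fold at 50 CPM or more. Shares were tested by exact permutation (scipy 1.17.1). Counts of called genes include some whose values are not reported here. The edgeR fits of the genotype at ZT4 and of paired classes were tested on simulated data, and the Pvalb fit and the alternatives were not. Alternatives were DESeq2 1.42.0, other filters, thresholds and normalization, nuclei thinned to 1000 UMIs, a replicate block, and each library left out. Replicates of a group differed by more than counting noise (chi-square 2.51 to 3.44 per degree of freedom). Python 3.11.15 and R 4.3.3 were used.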

Additional observations from a re-analysis of the deposited data

How the results depend on the processing

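Over all selected nuclei the comparisons called 1 (Ctrl time), 0 (cKOt time), 5 (genotype at ZT4), 3 (genotype at ZT16) and 1 (difference of time effects) genes. Without a filter on low counts these became 54, 66, 56, 130 and 48. Slc12a3 at 5 UMIs or more gave 14 and 11 for Ctrl time and the genotype at ZT4. DESeq2 gave 2 for Ctrl time and 9 for the genotype at ZT16. Leaving out nuclei with markers of other classes gave 3, 1 and 5 for Ctrl time, cKOt time and the genotype at ZT16, and separate fits of mRNAs and lncRNAs gave 1 for cKOt time. A limit of 0 summed late UMIs gave 3, 0 and 0 for the genotype at ZT4, at ZT16 and the difference of time effects, and leaving out doublets gave 0 for the genotype at ZT16. Leaving out 1 library gave 0 to 1, 0 to 1, 3 to 5, 0 to 4 and 0 to 1 calls. The count was 0 without Ctrl ZT4 replicate 1 for Ctrl time, without Ctrl ZT4 replicate 2 or Ctrl ZT16 replicate 1 for the difference of time effects, and without Ctrl ZT16 replicate 1, Ctrl ZT16 replicate 2 or cKOt ZT16 replicate 1 for the genotype at ZT16; cKOt time had 1 call without either Ctrl ZT4 library, and the genotype at ZT4 had 3 without either Ctrl ZT4 library or cKOt ZT4 replicate 1. The replicate block gave 1 call for the genotype at ZT16 and left the other counts at 1, 0, 5 and 1. Replicate numbers did not pair the libraries (correlation of deviations -0.165 to 0.233 over 7136 genes). For nuclei with Slc12a3 at 5 UMIs or more, DESeq2 was the only alternative fitted to the comparisons of genotype and time. Calls made only in those nuclei were thus not tested with a library left out.

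Late DCT gave 1915 calls, TAL 1805 and CNT 1932. Thinning to 1000 UMIs gave 746 and 1062 for late DCT and CNT, 5 UMIs or more of Slc12a3 gave 636, 3765 and 3473, and late DCT from 20 summed UMIs gave 904. Leaving out 1 library gave 1506 to 1855, 1467 to 1782 and 1583 to 1906. Differences from late DCT changed sign at 5 UMIs or more and with late DCT from 20 UMIs for Wnk4 (0.075 and 0.11), Lhx1 (0.38 and 0.53), Abca13 (0.48 and 0.64) and Lrp2 (-0.10 and -0.031). Lrp2 also changed sign against the TAL without the library block (0.036) and with thinning (0.0017), and against the CNT at 5 UMIs or more (-0.96). Of 773 values for named genes under an alternative, 705 kept direction and side of the threshold, 53 lost a call, 4 gained one and 11 changed sign. Most of the lost calls were those of genotype or time. At ZT16 they were 11 of 16 for Fhad1, 8 of 18 for Gm43190 and 7 of 19 for Npas2. At ZT4 they were 6 of 18 for Cry1, 4 of 19 for Rhobtb1, 2 of 19 for Arntl and 0 of 19 for Npas2. Against other classes no gene lost more than 3 (Sall3 from late DCT, of 17). The causes were not tested. Shares kept their sign throughout, at -0.499 (genotype) and -0.377 (time) percentage points when thinned and from -0.339 to -0.153 (genotype) and from -0.296 to -0.110 (time) percentage points with 1 library left out. The comparison of nuclei with 2 or more Pvalb UMIs could not be fitted.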
